A study of Mus musculus with 6 samples.

Results

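The genes described here encode enzymes of cholesterol and fatty acid synthesis and the proteins that regulate them. They were chosen by name as 18 sterol enzymes, 10 fatty acid enzymes, the regulators Insig1, Srebf1 and Srebf2, and the sterol carrier Stard4. These genes and the other lists below were chosen with earlier results of these data known. Their counts beside the share over all genes are therefore descriptions and not tests of a list. All 32 listed symbols were found among the 55487 genes of the deposited count table, and all 32 passed the filter on low counts. From whole dorsal skin of mice 6 libraries of polyadenylated RNA were sequenced, all labelled DPCP (diphencyprone, a chemical that sensitizes skin and then inflames it on renewed contact) and, per the series design, taken on day 2. The 3 libraries labelled DPCP+Codrosome also received clodrosome, liposomes loaded with clodronate, which kill the phagocytes that take them up. The 3 control libraries, labelled DPCP+Encapsome, received liposomes without clodronate. All 6 libraries carry DPCP, so no value here describes untreated skin, and the labels used give no strain, age or sex. By its title the series asks what macrophages contribute when hair grows back following contact hypersensitivity. Clodronate liposomes can reach any phagocyte. No label ties a library to its own animal, and p-values here therefore reflect the spread among these libraries alone, which may be technical.

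Cholesterol is built from acetyl-CoA through mevalonate, the isoprenoid diphosphates, squalene and lanosterol. Fatty acids are built from the same acetyl-CoA through malonyl-CoA to palmitate, which elongases lengthen and desaturases supply with double bonds. Both pathways are transcribed under the SREBP factors, membrane proteins that are released to the nucleus when sterols run low. SREBP2, the product of Srebf2, acts mainly on sterol genes. SREBP1, the product of Srebf1, acts mainly on fatty acid genes, and Srebf1 and Scd1 are also known targets of the oxysterol receptor LXR. In skin these pathways supply the lipids of the epidermal barrier, sebum and the dermal fat layer.

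Sequencing depth lay between 26649396 and 116965654 counts per library, the highest total belonging to clodrosome library A. Macrophage markers, which check the depletion, were lower in clodrosome skin for 10 of 10 genes, with summed levels of 1789.5 to 2855 CPM (counts scaled to the library total) in clodrosome and 7340.1 to 9176 CPM in encapsome libraries. The median log2 fold change of these markers was -1.93, and 13.0% of all genes tested were called lower. Adgre1, the F4/80 antigen, stood at 116, 64.7 and 91.5 CPM in clodrosome libraries A, B and C and at 271, 216 and 239 CPM in encapsome libraries A, B and C. The letters name table columns and pair nothing between groups. RNA of whole skin cannot tell fewer cells of a type from less RNA per cell, and this holds for every difference below.

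Most sterol enzymes were higher in clodrosome skin, while no fatty acid enzyme was called higher. Of 18 sterol enzymes 12 rose, 0 fell and 6 did not pass the test (edgeR's quasi-likelihood test, adjusted p under 0.05 over all genes), with a median log2 fold change of 0.41. Over all 17988 genes tested 9.41% were called higher and 13.0% lower (22.4% or 4035 genes in either direction), with a median of 0.01. The 4035 became 2642 without clodrosome library C and 2477 without encapsome library B. By unadjusted p under 0.05, 15 sterol enzymes were higher and 0 lower, where 6433 of all 17988 genes tested passed in either direction. A positive log2 value stands for more RNA with clodrosome. Of all 32 genes 14 were called higher, 4 lower and 14 in neither direction, and without encapsome library C 9 were higher. Among sterol enzymes 14 of 18 had every clodrosome library above every encapsome library and 0 the reverse, where 19.5% of all genes tested had clodrosome above and 20.7% had it below (40.2% either way). The rises were small, with log2 fold changes of called enzymes from 0.29 to 0.82. Summed over the 18 enzymes, the level was 1984, 2122 and 2064 CPM in clodrosome libraries A, B and C and 1658, 1568 and 1564 CPM in encapsome libraries A, B and C. The plot of log2 fold changes shows 17 of the 18 sterol enzymes to the right of 0.

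**Figure D1:**
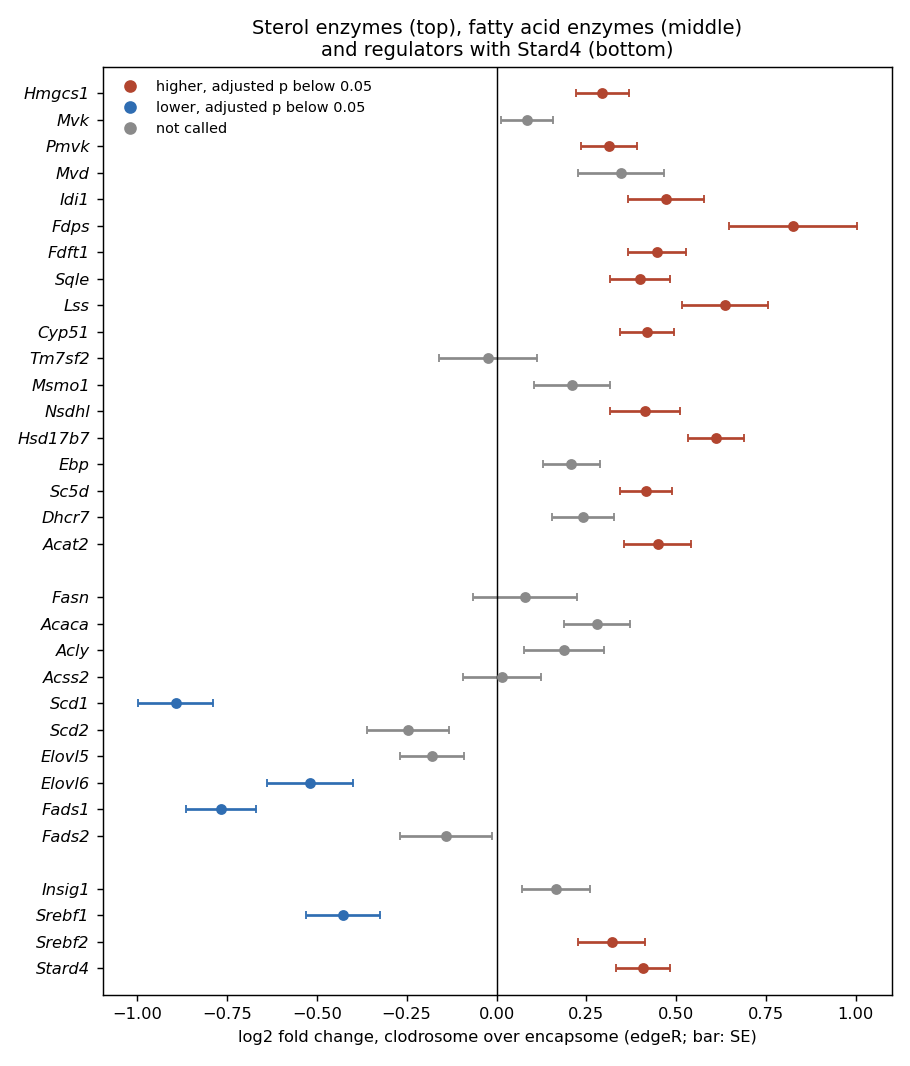
Log2 fold change (x axis, clodrosome over encapsome, edgeR) of each of the 32 genes (y axis); points are estimates, bars are standard errors and colour gives the call. The sterol enzymes lie between -0.02 and 0.82, the fatty acid enzymes between -0.89 and 0.28.

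Of the 8 enzymes that lead to squalene 6 rose, where 9.41% of all genes tested were called higher. Acat2, which joins acetyl-CoA units, stood at 71.4, 70.6 and 68.6 CPM in clodrosome libraries A, B and C and at 58.9, 46.7 and 48.6 CPM in encapsome libraries A, B and C. All clodrosome libraries lay above all encapsome libraries, with a log2 fold change of 0.45 ± 0.094 (standard error; edgeR adjusted p = 0.00881). Acat2 has a close paralog beside it, Acat3, so its count is uncertain to the extent that reads matched both. Hmgcs1, which makes HMG-CoA (chromosome 13, 119690379 to 119708260, GRCm38), held 235, 259 and 245 CPM with clodrosome and 207, 202 and 194 CPM with encapsome. Its groups did not overlap and its log2 fold change was 0.29 ± 0.073 (standard error; edgeR adjusted p = 0.0193), a 1.23-fold difference. Pmvk, the kinase that adds the next phosphate to phosphomevalonate, was measured at 63.6, 74.2 and 67.4 CPM with clodrosome and 54.9, 54.0 and 56.1 CPM with encapsome. That separation was 0.31 ± 0.077 (standard error; edgeR adjusted p = 0.0187) on the log2 scale. Mvk, the kinase of mevalonate itself, overlapped between the groups at 42.0 ± 1.45 against 39.6 ± 1.79 CPM (SD, n = 3 each), with a log2 fold change of 0.08 ± 0.072 (standard error; edgeR adjusted p = 0.453). Mvd, which makes isopentenyl diphosphate, also overlapped, because clodrosome library B was at 33.3 CPM and encapsome library A at 34.3 CPM. Its log2 fold change of 0.35 ± 0.12 (standard error; edgeR adjusted p = 0.0688) did not pass. It passed in 4 of 14 alternatives, among them DESeq2 (adjusted p = 0.0448) and the fit without clodrosome library B (edgeR adjusted p = 0.00489).

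Idi1, which isomerises isopentenyl diphosphate, had 111, 150.3 and 127 CPM in clodrosome libraries A, B and C and 92.5, 96.8 and 90.7 CPM in encapsome libraries A, B and C. Clodrosome library B was the highest and encapsome libraries differed little, for a log2 fold change of 0.47 ± 0.11 (standard error; edgeR adjusted p = 0.0122). Fdft1, squalene synthase, was at 134, 152 and 146 CPM with clodrosome and 112, 99.6 and 105 CPM with encapsome, without overlap. The log2 fold change of Fdft1 was 0.45 ± 0.080 (standard error; edgeR adjusted p = 0.00426). Exons of Ctsb, a cathepsin gene on the other strand, cover 18.8% of its exonic bases, and reads there are not counted. Fdps, farnesyl diphosphate synthase, had the largest fold of the genes that rose but, per length, the lowest level of all 32. It stood at only 4.18, 3.45 and 4.12 CPM with clodrosome and 2.23, 2.44 and 1.98 CPM with encapsome, from 52 to 500 counts per library. Its log2 fold change was 0.82 ± 0.18 (standard error; edgeR adjusted p = 0.0101), and another annotated gene on the same strand covers 26.7% of its exonic bases. Fdps is therefore uncertain, and without it 11 of 17 sterol enzymes were higher, with a median of 0.40.

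Past squalene 6 of 10 enzymes rose, against the same 9.41% of all genes called higher. Sqle, the squalene epoxidase that opens the sterol branch (chromosome 15, 59315077 to 59331192), held 221, 200.1 and 231 CPM in clodrosome libraries A, B and C and 177, 157 and 161 CPM in encapsome libraries A, B and C. The lowest clodrosome library exceeded the highest encapsome library, with a log2 fold change of 0.40 ± 0.084 (standard error; edgeR adjusted p = 0.00882). Lss, lanosterol synthase (chromosome 10, 76531588 to 76557138), was at 85.2, 61.2 and 73.4 CPM with clodrosome and 51.8, 45.3 and 44.6 CPM with encapsome. Clodrosome library B was the lowest of its group, and the log2 fold change was 0.64 ± 0.12 (standard error; edgeR adjusted p = 0.00530), or 1.55-fold. Cyp51, the lanosterol demethylase, had 225, 248 and 244 CPM with clodrosome and 179.8, 185 and 171 CPM with encapsome. It was tighter within each group than Lss, and differed by 0.42 ± 0.075 (standard error; edgeR adjusted p = 0.00411) on the log2 scale.

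The later steps remove methyl groups and move double bonds. Hsd17b7, the ketosteroid reductase of that demethylation (chromosome 1, 169949535 to 169969241), had the smallest p of the sterol enzymes. Its level was 163, 153 and 144 CPM in clodrosome libraries A, B and C and 106, 93.8 and 101.7 CPM in encapsome libraries A, B and C. The gap between the groups exceeded the spread within either, with a log2 fold change of 0.61 ± 0.079 (standard error; edgeR adjusted p = 7.90e-04), or 1.53-fold. Nsdhl, the dehydrogenase of the same complex, stood at 53.2, 46.5 and 59.1 CPM with clodrosome and 42.3, 39.4 and 37.8 CPM with encapsome, a log2 fold change of 0.41 ± 0.097 (standard error; edgeR adjusted p = 0.0153). Sc5d, a sterol desaturase, was at 89.3, 97.4 and 98.1 CPM with clodrosome and 71.7, 68.2 and 73.5 CPM with encapsome, again without overlap. The log2 fold change of Sc5d was 0.42 ± 0.071 (standard error; edgeR adjusted p = 0.00342). Ebp, the sterol isomerase, and Dhcr7, a reductase of the last steps, had groups that did not overlap but missed the threshold. Their log2 fold changes were 0.21 ± 0.081 (standard error; edgeR adjusted p = 0.0949) and 0.24 ± 0.087 (standard error; edgeR adjusted p = 0.0768). Msmo1, the methyl sterol oxidase, was at 283 ± 41.7 against 244 ± 7.40 CPM (SD, n = 3 each), with clodrosome library B at 327 and library A at 244 CPM, and its log2 fold change was 0.21 ± 0.11 (standard error; edgeR adjusted p = 0.188). Tm7sf2, a sterol reductase with a low level, was at 7.30 ± 0.780 against 7.39 ± 0.593 CPM (SD, n = 3 each), with a log2 fold change of -0.02 ± 0.14 (standard error; edgeR adjusted p = 0.923) whose sign turned with library totals alone (0.00920) and with upper-quartile scaling (0.0102). A p above the threshold does not show that these 4 enzymes were equal between the groups.

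The heat map of levels by library shows most of the 18 sterol rows shifted the same way. Within the clodrosome group the members did not share 1 order. Library B was the highest for Hmgcs1, Pmvk, Idi1, Fdft1, Cyp51, Tm7sf2, Msmo1 and Ebp and the lowest for Mvd, Fdps, Sqle, Lss and Nsdhl. The share of counts in rRNA genes was 0.796% in clodrosome library B against 0.355% and 0.334% in A and C, and 0.481% in encapsome A against 0.845% and 0.788% in B and C. The labels name no batch. Split by this share, each side has an arm of 1 library (1 clodrosome against 2 encapsome for the higher share, 2 against 1 for the lower), so its values carry no test. Among the 3 libraries with the higher share the median sterol difference in log2 CPM (0.5 CPM added) was 0.42, with 18 of 18 above 0. Among the 3 with the lower share it was 0.33, with 17 of 18 above 0. With this share as a term in the edgeR fit the count of sterol enzymes called higher was again 12.

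**Figure D2:**
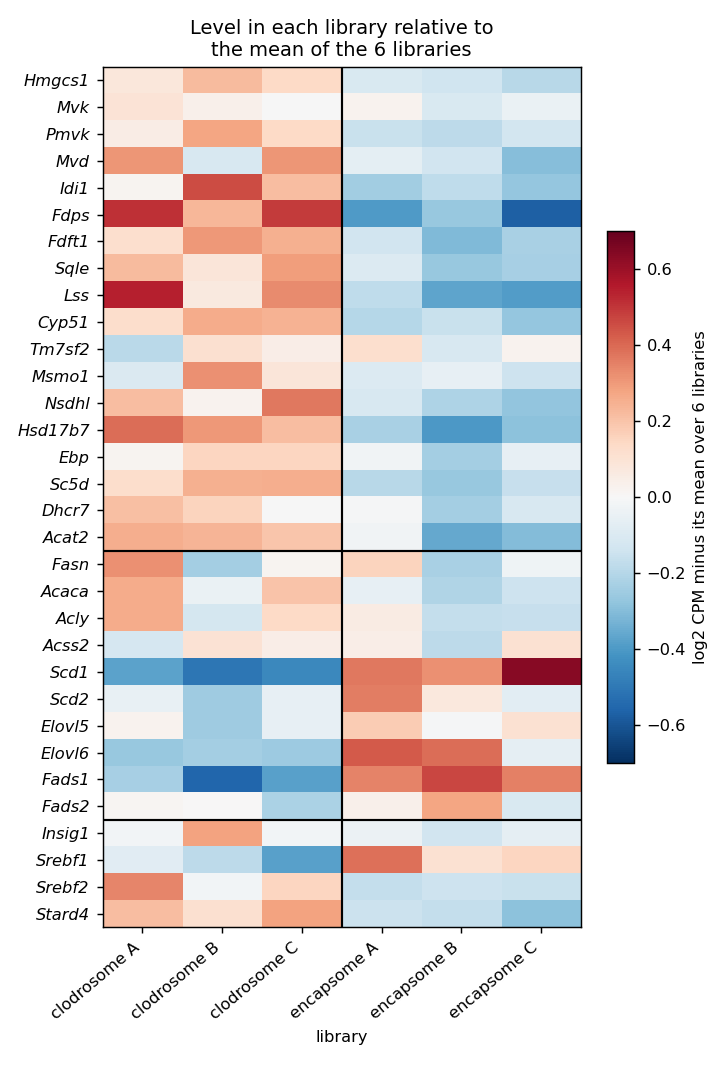
Level of the 32 genes (rows) in the 6 libraries (columns) as log2 CPM minus the gene's mean over the 6 libraries; red is above and blue below that mean, and lines divide the sterol enzymes, the fatty acid enzymes, the regulators with Stard4, and the groups. In 14 of 18 sterol rows every clodrosome library lies above every encapsome library, and Scd1, Elovl6, Fads1 and Srebf1 show the reverse.

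Of the 12 called sterol enzymes 8 kept their call in all 14 alternatives planned, namely Fdps, Fdft1, Sqle, Lss, Cyp51, Hsd17b7, Sc5d and Acat2. Idi1 lost it without encapsome library C (edgeR adjusted p = 0.0537). Hmgcs1 lost it in 3 cases, with edgeR adjusted p = 0.0614 without clodrosome library C, 0.0684 without encapsome library B and 0.0915 without encapsome library C. The edgeR adjusted p of Nsdhl was 0.0709 without clodrosome library C, 0.0612 without encapsome library B and 0.0650 without encapsome library C. For Pmvk the edgeR adjusted p was 0.0518 without clodrosome library C, 0.0551 without encapsome library A, 0.0741 without encapsome library B and 0.0551 without encapsome library C. The smallest count was 8 sterol enzymes called higher, without encapsome library C, against 9 without clodrosome library C or encapsome library B. In each of the 14 alternatives 0 sterol enzymes were called lower.

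Promoters were compared because 12 of the 18 sterol enzymes rose. RefSeq promoter windows of 300 bases on GRCm38.p6 were matched for 25 of the 32 genes, 15 of them sterol enzymes. The sterol regulatory element, searched as TCACNCCAC on both strands, was present in 1 of the 15 sterol enzymes, Hmgcs1. It was in 1.24% of all promoters in the table and in 1.47% of its genes tested for expression. The CCAAT box, searched as CCAAT on both strands, was present in 14 of 15 sterol enzymes, 4 of 7 fatty acid enzymes and 37.4% of all promoters. Among the 12337 genes of the table that were also tested for expression, 42.0% held it. The E-box CACGTG, which reads the same on both strands, was present in 3 of 15 sterol enzymes (Dhcr7, Hsd17b7 and Sc5d) and 7.15% of all promoters, or 10.9% of the genes tested for expression. The letters of these motifs do not overlap in the windows printed here. A match to such short letters is a description and not a binding site, and a window without a match says only that these letters are not in it. Hmgcs1 is shown as the sterol enzyme with TCACNCCAC, and Hsd17b7 and Sc5d as the 2 with the smallest p and a matched window, chosen after their values were seen. Each runs 5′ to 3′ on the strand of the gene and ends before the annotated start, with matches to the 3 motifs in capitals. Hmgcs1 lies at chr13:119690101-119690350 (plus strand), Hsd17b7 at chr1:169969242-169969455 (minus strand) and Sc5d at chr9:42264301-42264550 (minus strand).
Hmgcs1: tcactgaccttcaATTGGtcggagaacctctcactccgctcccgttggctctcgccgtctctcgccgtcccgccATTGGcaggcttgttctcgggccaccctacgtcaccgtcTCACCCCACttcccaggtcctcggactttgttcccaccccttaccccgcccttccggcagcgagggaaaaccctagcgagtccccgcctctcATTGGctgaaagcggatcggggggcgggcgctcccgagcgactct
Hsd17b7: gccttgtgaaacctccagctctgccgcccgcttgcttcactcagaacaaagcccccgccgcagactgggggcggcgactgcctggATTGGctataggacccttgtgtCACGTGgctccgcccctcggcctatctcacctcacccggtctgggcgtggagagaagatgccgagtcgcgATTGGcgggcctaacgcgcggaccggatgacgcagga
Sc5d: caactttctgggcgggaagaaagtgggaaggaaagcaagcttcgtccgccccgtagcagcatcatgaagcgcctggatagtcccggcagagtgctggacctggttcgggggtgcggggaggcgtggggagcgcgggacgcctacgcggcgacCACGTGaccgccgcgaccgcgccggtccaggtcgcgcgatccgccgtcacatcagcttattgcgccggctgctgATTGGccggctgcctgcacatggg
The Hmgcs1 window holds TCACCCCAC with its first base at -137 from the RefSeq start, between inverted CCAAT boxes (ATTGG) at -176 and -45. The Hsd17b7 and Sc5d windows each hold CACGTG, at -143 and -98, and ATTGG.

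Of the factors themselves Srebf2 rose and Srebf1 fell. Srebf2 (chromosome 15, 82147181 to 82205379) was at 213, 166 and 186 CPM in clodrosome libraries A, B and C and at 149.7, 152 and 151 CPM in encapsome libraries A, B and C. Encapsome libraries were almost level and all clodrosome libraries lay above them, with a log2 fold change of 0.32 ± 0.094 (standard error; edgeR adjusted p = 0.0373). That call was the least stable of the 18, with edgeR adjusted p = 0.0570 with the rRNA share as a term, 0.0980 without clodrosome library A, 0.108 without clodrosome library C, 0.0978 without encapsome library A, 0.105 without encapsome library B and 0.112 without encapsome library C. Srebf1 (chromosome 11, 60199089 to 60222581) fell, from 83.2, 68.4 and 70.7 CPM in encapsome libraries A, B and C to 60.1, 56.0 and 48.8 CPM in clodrosome libraries A, B and C. Its groups did not overlap either, and its log2 fold change was -0.43 ± 0.10 (standard error; edgeR adjusted p = 0.0166). The call was lost without 2 of the 6 libraries in turn, with edgeR adjusted p = 0.0645 without clodrosome library C and 0.0567 without encapsome library A. Per length (TPM, counts scaled to exonic length and then to the library), the ratio of Srebf2 to Srebf1 was 2.78, 2.32 and 2.99 in clodrosome libraries A, B and C and 1.41, 1.75 and 1.67 in encapsome libraries A, B and C.

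Insig1, which holds the SREBP precursors in the endoplasmic reticulum when sterols are abundant, had the smallest difference of the 4. It was at 56.8, 70.1 and 57.0 CPM in clodrosome libraries and 56.0, 52.5 and 55.2 CPM in encapsome libraries, so clodrosome library B stood apart while A and C lay close to the control range. The log2 fold change was 0.17 ± 0.094 (standard error; edgeR adjusted p = 0.242). Stard4, a carrier that moves cholesterol between membranes, was at 81.0, 75.2 and 84.6 CPM with clodrosome and 62.7, 62.0 and 57.0 CPM with encapsome. The groups were well separated, with a log2 fold change of 0.41 ± 0.076 (standard error; edgeR adjusted p = 0.00507), and its call held in all 14 alternatives.

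**Figure D3:**
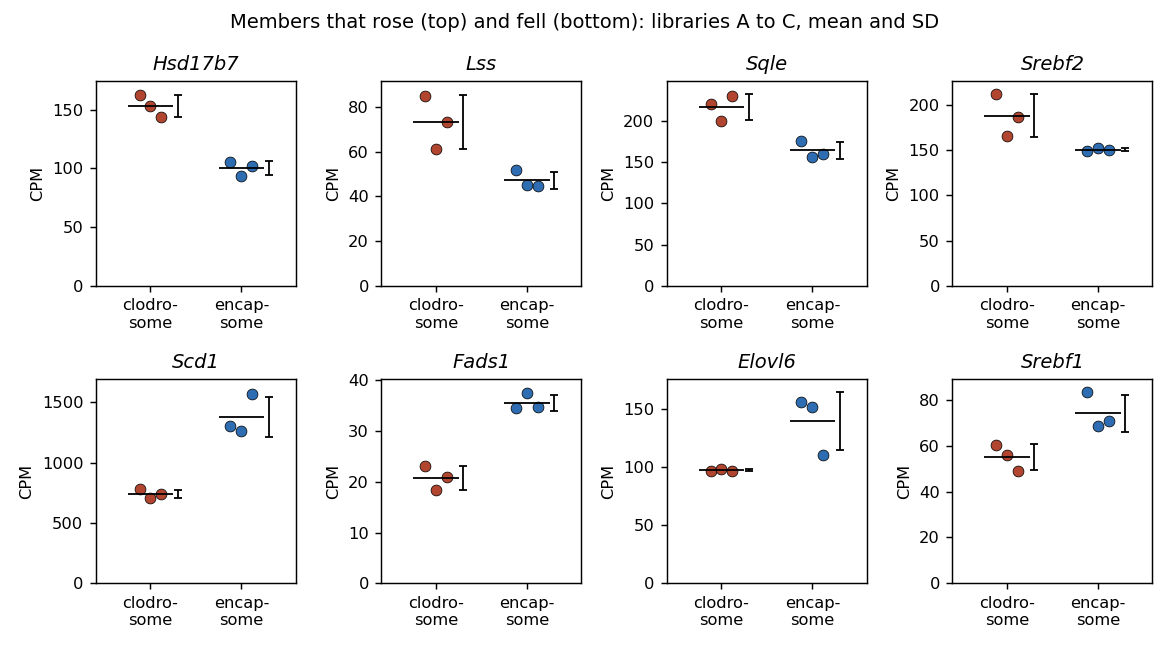
CPM (y axis, from 0) of 8 genes in the clodrosome (red) and encapsome (blue) libraries; points are libraries A to C from left to right, horizontal lines are means and bars are SD (n = 3). In the top row the clodrosome libraries lie above the encapsome libraries and in the bottom row below them, with Scd1 at 778, 710.0 and 738 against 1302, 1261 and 1572 CPM.

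Of 10 fatty acid enzymes 0 rose, 3 fell and 7 did not pass, with a median log2 fold change of -0.16. The 13.0% of all genes called lower sets the background for the 3 that fell. All 3 were among the 6 desaturases and elongases, and a difference between these and the 4 enzymes of palmitate supply was not tested. Scd1, the desaturase that makes oleate and palmitoleate (chromosome 19, 44394455 to 44407879), was at 778, 710.0 and 738 CPM in clodrosome libraries A, B and C and at 1302, 1261 and 1572 CPM in encapsome libraries A, B and C. The highest clodrosome library lay well below the lowest encapsome library, with a log2 fold change of -0.89 ± 0.10 (standard error; edgeR adjusted p = 4.70e-04), or 1.86-fold lower. Fads1, a desaturase of polyunsaturated fatty acids (chromosome 19, 10182888 to 10196877), was at 23.1, 18.5 and 20.9 CPM with clodrosome and 34.5, 37.4 and 34.7 CPM with encapsome. Its log2 fold change was -0.77 ± 0.097 (standard error; edgeR adjusted p = 7.50e-04), or 1.70-fold lower, and like that of Scd1 it was called in all 14 alternatives. Elovl6, which lengthens palmitate to stearate (chromosome 3, 129532355 to 129638495), was at 96.5, 98.3 and 97.1 CPM with clodrosome and 156, 152 and 111 CPM with encapsome. The clodrosome libraries were level and encapsome library C was the closest to them. The log2 fold change of Elovl6, -0.52 ± 0.12 (standard error; edgeR adjusted p = 0.0136), lost its call without encapsome library B (edgeR adjusted p = 0.0618).

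The close relatives of these enzymes had smaller values. Scd2, the Scd1 paralog next to it on chromosome 19, stood at 223, 194 and 222 CPM in clodrosome libraries and 296, 243 and 219 CPM in encapsome libraries. Its groups overlapped, and its log2 fold change was -0.25 ± 0.11 (standard error; edgeR adjusted p = 0.159). Elovl5, an elongase of polyunsaturated fatty acids, and Fads2, the desaturase that acts before Fads1, overlapped between groups with log2 fold changes of -0.18 ± 0.089 (standard error; edgeR adjusted p = 0.180) and -0.14 ± 0.13 (standard error; edgeR adjusted p = 0.476). With the rRNA share as a term, Scd2 and Elovl5 were called lower as well, at -0.33 and -0.24 (edgeR adjusted p = 0.0130 and 0.0351), which made 5 lower in all. Per length the ratio of Fads1 to Fads2 was 1.14, 0.921 and 1.21 in clodrosome libraries A, B and C and 1.68, 1.54 and 1.87 in encapsome libraries A, B and C. The ratio of Scd1 to Scd2 was 3.90, 4.08 and 3.71 against 4.91, 5.80 and 8.01, so both ratios were lower in every clodrosome library. A difference in response between paralogs was not tested.

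Of the 4 enzymes that make palmitate and its precursors 0 passed the edgeR test. An unadjusted p under 0.05 was found for 1 (Acaca), and for 6433 of all 17988 genes tested. Fasn, fatty acid synthase, was at 285, 194 and 231 CPM in clodrosome libraries A, B and C and at 254, 195 and 223 CPM in encapsome libraries A, B and C. The groups overlapped, with library A the highest in each, and the log2 fold change was 0.08 ± 0.14 (standard error; edgeR adjusted p = 0.739). Acaca, which makes malonyl-CoA, had groups that did not overlap, at 100.1 ± 10.9 against 82.5 ± 4.26 CPM (SD, n = 3 each), and a log2 fold change of 0.28 ± 0.091 (standard error; edgeR adjusted p = 0.0551). It was called higher in 5 of the 14 alternatives, among them DESeq2 (adjusted p = 0.0449) and the fit without clodrosome library B (edgeR adjusted p = 0.00666). Acly, which splits citrate into acetyl-CoA, was at 285 ± 37.95 against 249.9 ± 22.6 CPM (SD, n = 3 each), with a log2 fold change of 0.19 ± 0.11 (standard error; edgeR adjusted p = 0.261), and was called higher without clodrosome library B (edgeR adjusted p = 0.0422). Acss2, which makes acetyl-CoA from acetate, was at 20.2 ± 1.56 against 19.9 ± 2.09 CPM (SD, n = 3 each), with a log2 fold change of 0.02 ± 0.11 (standard error; edgeR adjusted p = 0.938).

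The summed level of fatty acid enzymes rested on Scd1. The 10 enzymes added up to 1939.5, 1643 and 1807 CPM in clodrosome libraries A, B and C and to 2523, 2309.6 and 2592 CPM in encapsome libraries A, B and C, without overlap. Without Scd1 the sums were 1161, 933 and 1069 CPM and 1220.4, 1048 and 1019.9 CPM, which overlapped. Scd1 alone made up 46.9, 49.6 and 47.3% of the group's TPM in clodrosome libraries and 57.6, 60.2 and 66.3% in encapsome libraries. The bar plot of summed levels shows the sterol sum above the control and the fatty acid sum below it.

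**Figure D4:**
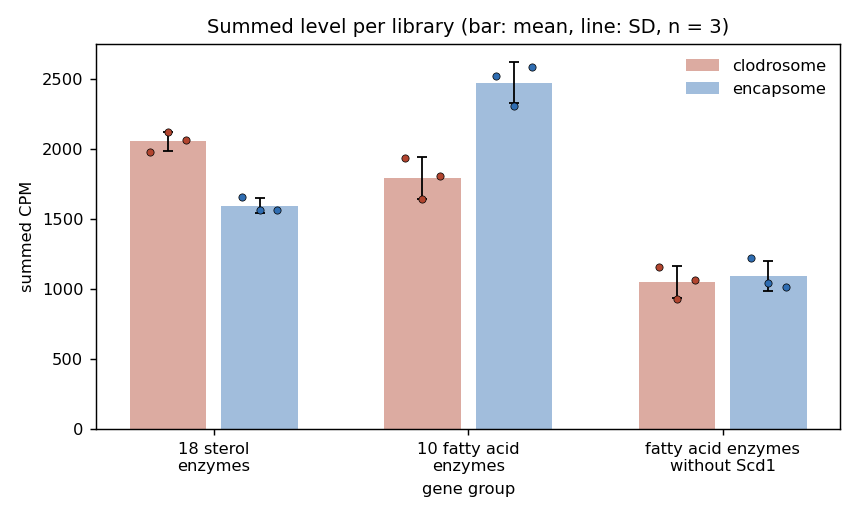
Summed CPM (y axis) of the 18 sterol enzymes, the 10 fatty acid enzymes and the latter without Scd1, in clodrosome (red) and encapsome (blue) libraries; bars are means, lines are SD and points are libraries (n = 3). The sterol sums averaged 2057 and 1597 CPM, the fatty acid sums 1796 and 2475 CPM, and those without Scd1 overlapped.

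Per length, Scd1 was the most abundant of the 32 genes in both groups, at 409 ± 43.0 TPM with clodrosome and 734 ± 81.7 TPM with encapsome (SD, n = 3 each). In encapsome skin it was followed by Acly at 124 ± 13.3, Scd2 at 121 ± 21.0, Hmgcs1 at 114 ± 5.51, Cyp51 at 106 ± 5.23 and Msmo1 at 104 ± 4.10 TPM (SD, n = 3), neighbours whose SDs overlap. The lowest were Fdps, Tm7sf2 and Acss2, at 1.37, 4.38 and 5.12 TPM. The ratio of the sterol sum to the fatty acid sum in TPM was 1.43, 1.77 and 1.59 in clodrosome libraries A, B and C, all above 1, and 0.885, 0.900 and 0.798 in encapsome libraries A, B and C, all below 1.

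Other genes of lipid metabolism were read from lists drawn up by function, with earlier results of these data known. They stand beside 9.41% of all genes called higher and 13.0% called lower. The machinery that releases and senses SREBPs had 0 of 12 tested genes called by edgeR. By unadjusted p under 0.05 it had 3 higher and 2 lower, where 6433 of all 17988 genes passed in either direction. Its smallest p-values belonged to Rnf145, a ubiquitin ligase of the sterol-sensing system, at -0.22 ± 0.070 (standard error; edgeR adjusted p = 0.0518), to Insig2 at 0.21 ± 0.083 (standard error; edgeR adjusted p = 0.0951) and to Scap, the SREBP escort, at 0.19 ± 0.077 (standard error; edgeR adjusted p = 0.103). Insig2 and Rnf145 were each called in 1 of the 14 alternatives, 1 gene of the list was called lower without clodrosome library B, and 0 of the 12 passed with DESeq2. Isoprenoid branch genes had 2 of 11 higher and 0 lower. Their median of 0.01 turned to -0.02 without clodrosome library C or encapsome library C and was 0.06 without clodrosome library B. These were Pdss1, for the side chain of ubiquinone, at 0.41, and Fntb, a farnesyltransferase subunit, at 0.40. The call of Pdss1 was lost with edgeR adjusted p = 0.0601 without encapsome library B and 0.0530 without encapsome library C. That of Fntb was lost without each library but clodrosome B, with edgeR adjusted p from 0.0513 to 0.0583.

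Over all genes tested 9.41% were called higher and 13.0% lower. Of 16 genes of sterol uptake, transport and esterification 8 fell, 2 rose and 6 were not called, with a median of -0.23. Lipa, the lysosomal acid lipase, fell most, with a log2 fold change of -2.08 ± 0.22 (standard error; edgeR adjusted p = 3.02e-04). Soat1, which esterifies cholesterol, and Nceh1, a cholesterol ester hydrolase, changed by -1.39 and -1.08 (edgeR adjusted p = 1.23e-04 and 2.93e-04). The 2 that rose, Gramd1a and Stard5, were named after their values were seen, and their number became 0 without clodrosome C or encapsome C and 1 without encapsome A or encapsome B. Of 9 genes of LXR and cholesterol efflux 6 fell, 0 rose and 3 were not called, with a median of -0.61. Abcg1 and Abca1, the efflux transporters, changed by -1.67 and -1.19, and Nr1h3, which encodes LXR alpha, by -0.61 (edgeR adjusted p = 1.63e-04, 9.88e-04 and 0.00137). Mylip, another known LXR target, chosen after values were seen, fell as well, at -0.82 ± 0.14 (standard error; edgeR adjusted p = 0.00354). The 3 genes of this list that were not called lay near 0. They were Lpcat3 at 0.02, Scarb1 at -0.04 and Nr1h2 at 0.01 (edgeR adjusted p = 0.90, 0.86 and 0.94). LXR activity itself was not tested.

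Genes of fatty acid supply and further elongation had 3 of 22 tested members higher and 1 lower, with a median of 0.06, where 9.41% of all genes were called higher and 13.0% lower. The count higher became 1 without clodrosome A, encapsome B or encapsome C, and the count lower 0 without encapsome C and 2 without clodrosome B or clodrosome C. Tecr, the reductase of the elongation cycle, rose by 0.53 ± 0.11 (standard error; edgeR adjusted p = 0.0106). Acsl4, an acyl-CoA ligase, was lower at -0.30 ± 0.065 (standard error; edgeR adjusted p = 0.0107). The call of Acsl4 was lost without encapsome library C (edgeR adjusted p = 0.0530). Of 14 genes of triglyceride and phospholipid assembly 5 rose and 1 fell, with a median of 0.13 that was 0.21 without clodrosome library B. There Pcyt2, of phosphatidylethanolamine synthesis, rose by 0.37 ± 0.070 (standard error; edgeR adjusted p = 0.00509). The count higher in that list became 1 without encapsome B or encapsome C and 3 without clodrosome A, clodrosome C or encapsome A, and the count lower 0 without clodrosome A, clodrosome C, encapsome A, encapsome B or encapsome C. Fatty acid oxidation had 2 of 11 tested genes higher and 0 lower, with a median of 0.19. Its Hadhb, a subunit of the mitochondrial trifunctional protein, was at 0.36, and that call was lost without each encapsome library in turn (edgeR adjusted p = 0.0536 without encapsome library A, 0.0720 without encapsome library B and 0.118 without encapsome library C). The count higher there became 0 without encapsome A, encapsome B or encapsome C, 1 without clodrosome C and 4 without clodrosome B. The plot of all lists sets these beside the cell markers.

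**Figure D5:**
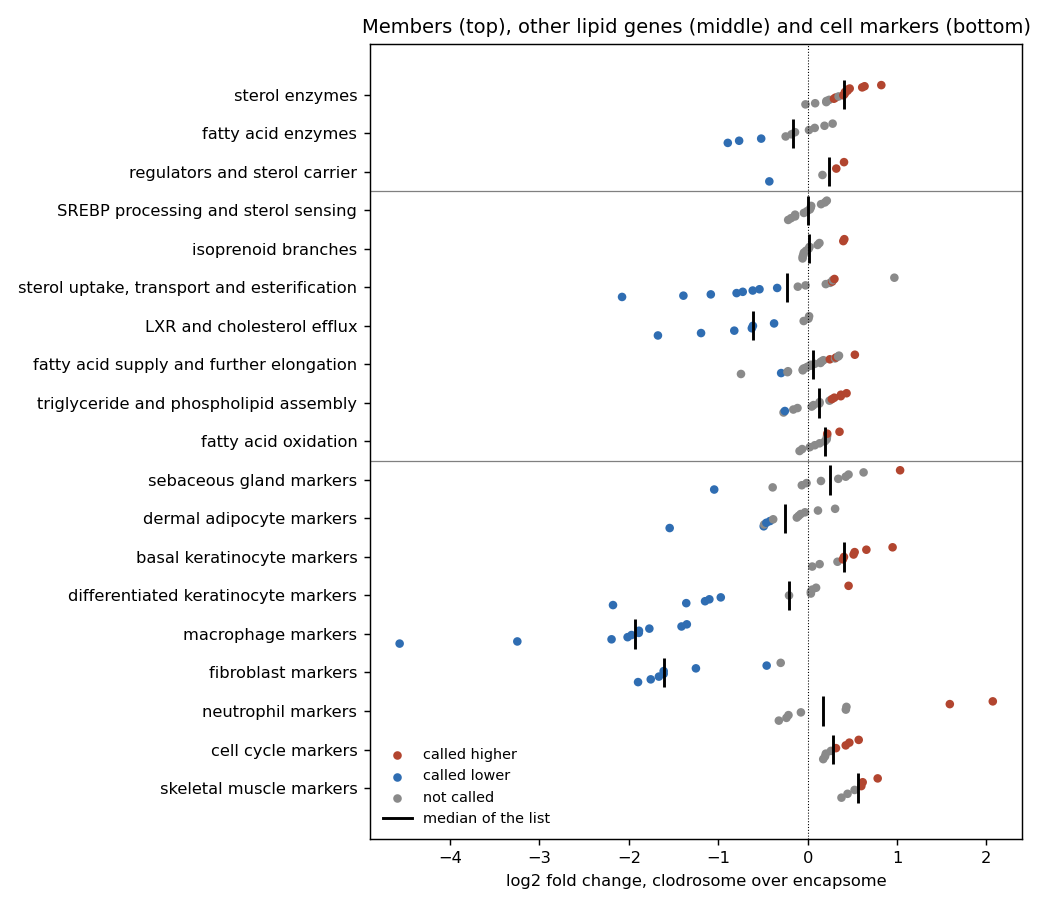
Log2 fold change (x axis, clodrosome over encapsome) of every tested gene in each list (y axis); points are genes coloured by call and black bars are list medians. The sterol enzymes centre at 0.41 and the genes of LXR and efflux at -0.61. Higher medians among the cell markers are skeletal muscle at 0.56, basal keratinocytes at 0.41, cell cycle at 0.29, sebaceous gland at 0.25 and neutrophils at 0.18. Lower ones are differentiated keratinocytes at -0.21, adipocytes at -0.25, fibroblasts at -1.61 and macrophages at -1.93.

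Markers of several cell types moved between the same groups, where 9.41% of all genes tested were called higher and 13.0% lower. Basal keratinocyte markers were higher for 6 of 9 genes, with a median of 0.41 and summed levels of 24341 to 25029 CPM with clodrosome and 16611 to 20624 CPM with encapsome. That count was 3 without encapsome library B. Krt5, a basal keratin, rose by 0.66 ± 0.13 (standard error; edgeR adjusted p = 0.00588). Cell cycle markers were higher for 4 of 8 genes, with a median of 0.29 and sums of 1405 to 1535 against 1134 to 1253 CPM. Skeletal muscle markers were higher for 3 of 6, at 2796 to 4082 against 2102 to 2402 CPM, a count that became 1 without clodrosome C, encapsome A or encapsome B. The part of these cell types in the higher sterol enzymes was not tested.

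Sebaceous glands and fat cells are both rich in Scd1. The counts of markers called below stand against 9.41% of all genes called higher and 13.0% called lower. Of 10 sebaceous gland markers 1 rose (Dgat2l6, at 1.03) and 1 fell (Fa2h, a fatty acid hydroxylase, at -1.05), and their sums of 1026 to 1164 and 886 to 1069 CPM overlapped. With DESeq2 4 rose and 2 fell, and with edgeR the count higher became 2 without clodrosome A, clodrosome C or encapsome A and the count lower 2 without clodrosome B. Mc5r, the melanocortin receptor of sebocytes, was low, at 2.34 ± 0.486 against 2.37 ± 0.551 CPM (SD, n = 3 each), and its log2 fold change of -0.01 was near 0. Of 12 dermal adipocyte markers 4 fell and 0 rose, with a median of -0.25 and sums of 2497 to 3079 and 2940.0 to 3269 CPM, which overlapped. The count higher was 1 without clodrosome A. Pck1, an enzyme of glyceroneogenesis, and Adipoq, the adipokine adiponectin, changed by -1.54 and -0.46 (edgeR adjusted p = 0.00145 and 0.0253). The call of Adipoq was lost without each encapsome library in turn (edgeR adjusted p = 0.0631 without encapsome library A, 0.0849 without encapsome library B and 0.0638 without encapsome library C). Fibroblast markers fell for 7 of 8 genes, at 2293 to 4367 against 8174 to 9646 CPM. Of 11 differentiated keratinocyte markers 5 fell and 1 rose (0 without encapsome B or encapsome C), with a median of -0.21. Their sums of 3224 to 3611 and 3199.5 to 3837 CPM overlapped, though single genes fell far. Lor, Krt10 and Flg2 were called lower in all 14 alternatives. Over these the log2 fold change ran from -2.52 to -1.89 for Lor, -1.70 to -1.16 for Krt10 and -1.17 to -0.75 for Flg2. Neutrophil markers were higher for 2 of 8 (4 with DESeq2), and their sums of 1469 to 2071 and 1069.9 to 1723 CPM overlapped. Of these 8 markers 4 had a log2 fold change above 0 and 4 below, and 1 was called lower without encapsome library A. No marker of these lists was at 0 in any library, and the part of macrophages, fibroblasts or fat cells in the lower Scd1, Fads1, Elovl6 and Srebf1 was not tested.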

How the data were processed

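The table of raw counts was deposited as written by featureCounts 1.6.2 with Ensembl release 102 (GRCm38), per the file headers. Per the submitters' processing notes, Trimmomatic 0.36, HISAT2 2.2.1, StringTie 2.2.1 and DESeq2 1.34.0 were also used, with build mm10. The command in the header sets no option for pairs, strand, multiple mapping or overlap, whose defaults count read ends singly, ignore strand (the kit, per the labels, marks it) and leave out ambiguous reads. Of the counts from 1 to 20, 63.6% to 69.7% per library were even numbers, as arises when a fragment adds both its ends. Exonic length in bases is the deposited table's own column, per the file headers, and gave TPM.

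Columns were matched to groups by name, and 0 other columns of sample values exist. Symbols were found for 99.4% of genes, and 1 of 212 listed symbols was not found. CPM uses TMM factors from 0.982 to 1.02. R 4.3.3 and edgeR 4.0.16 served to test genes by the quasi-likelihood F-test with no term but the group, on genes kept by filterByExpr (minimum count 10, total 15), with Benjamini-Hochberg adjustment over 17988 genes and a threshold of 0.05. Standard errors are the log2 fold change over the square root of F. No pair of libraries of a group looked like 1 library, with a chi-square per gene of at least 9.93. Counts were also simulated for this comparison, with changes put into 200 genes drawn at random. Over 17722 genes, 70.7% of changes of 1 and 19.6% of changes of 0.5 on the log2 scale were recovered.

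The members and lists were chosen with earlier results of these data known. The rule names all members, up to 3 genes with the smallest p of each other list, and Adipoq, Mc5r, Krt5 and Adgre1. Alternatives were RLE, upper-quartile and no scaling factors, 2 other filters, DESeq2 1.42.0, limma 3.58.1 (voom), the rRNA share (high or low) as a term, leaving out each library and, added after seeing the data, a block by the numbers in the column names. The planned protein sequences are not used here.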

Additional observations from a re-analysis of the deposited data

How the results depend on the processing

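Of 448 values (32 genes under 14 alternatives), 401 kept direction and side of the threshold, 16 passed newly, 20 no longer passed and 11 turned sign, and the cause was not tested. Fatty acid enzymes called higher became 1 with upper-quartile factors, library totals alone, no low-count filter or DESeq2. With the rRNA share as a term 5 fatty acid enzymes were lower and 1 gene of the regulators with Stard4, namely Stard4, was higher. Leaving out each library in turn gave 2477 to 4396 called genes in all, 9 to 17 members higher, 0 to 2 fatty acid enzymes higher, 1 to 2 of the regulators with Stard4 higher and 0 to 1 lower, and a sterol median of 0.34 to 0.42. Among the 32 genes signs turned for 3, all near 0. Tm7sf2 became 0.0102 with upper-quartile factors and 0.00920 with library totals, and ran from -0.0856 to 0.0673 over left-out libraries. Fasn became -0.0431 with the rRNA term and ran from -0.0761 to 0.210, and Acss2 became -0.001 with limma voom and ran from -0.0682 to 0.0803. The marker Mc5r became 0.0218, 0.0231, 0.0044, 0.0248 and 0.0087 with upper-quartile factors, library totals, no filter, limma voom and the rRNA term, and ran from -0.195 to 0.131. Counts of other lists (by over 1.5 times) or their medians moved in 74 cases, among them sebaceous markers called higher (1, and 5 with no filter). The columns do not carry the replicate numbers of the titles, but their names hold numbers of their own, of which 2 and 4 occur in both groups. Libraries that share a number did not deviate together (correlations across genes of -0.036 and -0.046), and nothing says that they were paired. With these numbers as a replicate block in edgeR, an alternative chosen after seeing the data that leaves 1 residual degree of freedom and takes nothing for the difference from clodrosome library B or encapsome library A, all 18 called members were called with the same sign, 3 more passed (Mvd, Acaca and Acly), the fatty acid enzymes called higher were 2 and their median was -0.0579. In simulated counts with changes put into 200 genes, changes of 0.5 on the log2 scale were often missed. In the data 4035 genes were called, which makes the adjusted threshold less strict, so that rate does not describe the sterol enzymes.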
